A study of Homo sapiens with 7 samples.

Results

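The genes described here are 52 genes of the oxidative stress response that is governed by NRF2, of the 34809 gene names that the non-control probes of the array carry. They were chosen by their function in that response, in a list drawn up with earlier results of the comparison of HOTAIR with empty-vector arrays known, and they were found by the gene name that the array lists for each probe. All 52 were on the array, with 63 probes. ACHN cells, a human renal cell carcinoma (RCC) line, were infected with a pBabe-hygro retrovirus made in Plat-A packaging cells, which carried human HOTAIR cDNA in 1 group (HOTAIR, 3 arrays) and no insert in the other (EV, 4 arrays), and both groups were selected with hygromycin. The cells are therefore infected and drug-selected in both groups, and it is not given in the sources used here if samples of the same group come from separate infections or cultures, so that every measure of spread covers these samples only and may be technical. Each sample was hybridised to 1 single-colour Agilent array, and all 7 arrays lay on 1 slide, EV in 1 of its rows and HOTAIR in the other, which means that an effect of the row and an effect of HOTAIR cannot be told apart.

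NRF2, encoded by NFE2L2, is a transcription factor that KEAP1 binds and delivers for degradation when the cell is not under oxidative or electrophilic stress. When KEAP1 is modified, NRF2 accumulates, pairs with a small MAF protein and binds the antioxidant response element, a short DNA motif at which BACH1 acts as a repressor. Its targets make glutathione, regenerate thioredoxin, supply NADPH and reduce quinones and carbonyls, and the pathway is known for its activation in part of renal carcinomas. The 52 genes were divided by role into 7 regulators, 18 genes of glutathione synthesis and use, 10 of the thioredoxin and peroxiredoxin system, 4 of NADPH supply, 3 enzymes that remove superoxide and peroxide, and 10 reductases and other targets.

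All levels are log2 intensities relative to the 75th percentile of the same array, so that 0 is the 75th percentile, and a difference is the HOTAIR mean minus the EV mean on that log2 scale. The intensity at that percentile was 523 to 649 on the EV arrays and 552 to 640 on the HOTAIR arrays, between 48.7% and 52.2% of the probes of an array were well above background, and no spot was saturated. Levels of different probes cannot be set against each other. The HOTAIR probe (chromosome 12, 54356661 to 54356720 on hg19, minus strand) read -6.29, -6.97, -6.42 and -7.07 on EV 1 to EV 4 and -3.12, -3.24 and -2.58 on HOTAIR 1 to HOTAIR 3. It was well above background on each HOTAIR array and on none of the EV arrays, so the labels and the transgene matched, and the HOTAIR mean was at least 9.32-fold higher, taking for each EV array the higher of the probe's own signal and the lowest signal among its probes well above background. Among markers of renal epithelium, PAX8 and PAX2 were well above background on all 7 arrays and CDH6 on none. The same held on all 7 for VIM, an intermediate filament of mesenchymal cells, and for the epithelial keratins KRT8 and KRT18, whose probes the array annotation does not place on chromosome 12, where RefSeq lists both genes, while CD3E, VWF, COL1A1, COL1A2 and DCN, which mark T cells, endothelium and fibroblasts, were on none. Of the other markers of leukocytes and endothelium listed, CD68, a lysosomal protein of macrophages, exceeded background clearly on all 7 arrays, with a difference of 0.01, PTPRC did so on 2 EV arrays and 1 HOTAIR array, CDH5 on 3 EV arrays and 1 HOTAIR array, and PECAM1 on 1 EV array, and their part in the results was not tested.

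Because NRF2 acts through the antioxidant response element, the promoters were searched for its core, TGACNNNGC, on both strands. The search covered windows from 250 bases before to 50 bases after each annotated start (RefSeq, GRCh38.p14). Windows were given for 43 of the 52 genes, and 15 of the 43 (34.9%) held the motif in at least 1 window, against 16.1% of the 27305 genes with a window. Counted by window, since a gene can have several starts, 25.8% of the 62 member windows and 13.4% of all 35093 windows held it. Many members have long been listed as targets of this element, so the share describes the list and is not a result. The following 29-base stretches are shown as examples, for a regulator and for 1 or more genes of each other branch with a match. Of their genes, GPX2 was not tested. Each is written 5′ to 3′ so that the motif reads forward, with the motif in capitals, and positions count from 0 at the annotated start.
KEAP1 (chr19:10502784-10502812, motif at -31 to -23, antisense to the gene): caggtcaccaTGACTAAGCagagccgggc
GCLM (chr1:93909446-93909474, -34 to -26, antisense): tggaagacaaTGACTAAGCagaaatcgta
GSTP1 (chr11:67583736-67583764, -66 to -58, sense): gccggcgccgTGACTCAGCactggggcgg
GPX2 (chr14:64942849-64942877, -122 to -114, antisense): atccccaggaTGACTTAGCaaaaacaggt
TXNRD1 (chr12:104215670-104215698, -99 to -91, sense): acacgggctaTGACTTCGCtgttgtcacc
ME1 (chr6:83431170-83431198, -137 to -129, sense): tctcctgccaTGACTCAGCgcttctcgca
PIR (chrX:15493289-15493317, 26 to 34, antisense): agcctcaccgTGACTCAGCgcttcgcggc
The stretches of GSTP1, ME1 and PIR hold the same motif letters, TGACTCAGC, and those of KEAP1 and GCLM share TGACTAAGC. By branch, the motif was found for 2 of the 6 regulators with a window, 7 of 15 glutathione genes, 1 of 8 thioredoxin genes, 2 of 4 NADPH genes, none of 2 superoxide and peroxide enzymes and 3 of 8 reductases and other targets. A match is a run of letters, not a binding site, and a window without one says nothing about the factor.

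Most members differed little between the groups. The median difference over the 48 members that could be tested was 0.09, from -0.24 for PRDX2 to 2.06 for LOC344887, and 35 of the 48 (72.9%) were positive, against a median of 0.01 and 52.8% positive over the 20419 tested probes. The fit over the whole array (limma, adjusted p of 0.05) called 1 of the 48 members higher and none lower, where it called 0.132% of all tested probes higher and 0.0343% lower. For 8 members the lowest HOTAIR array exceeded the highest EV array, and for 2 the highest HOTAIR array was under the lowest EV array, where this held for 4.2% and 3.5% of all tested probes. Because the members were listed with this comparison known, these counts describe the list and nothing is read from them. Without EV 2 and HOTAIR 3, which stood apart from the rest of their groups, 16 of the 48 lay above, as did 14.3% of all tested probes. The other 4 members, NFE2L2, GPX2, GSTM2 and GSTM4, were not well above background on every array of either group and had no test.

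**Figure D1:**
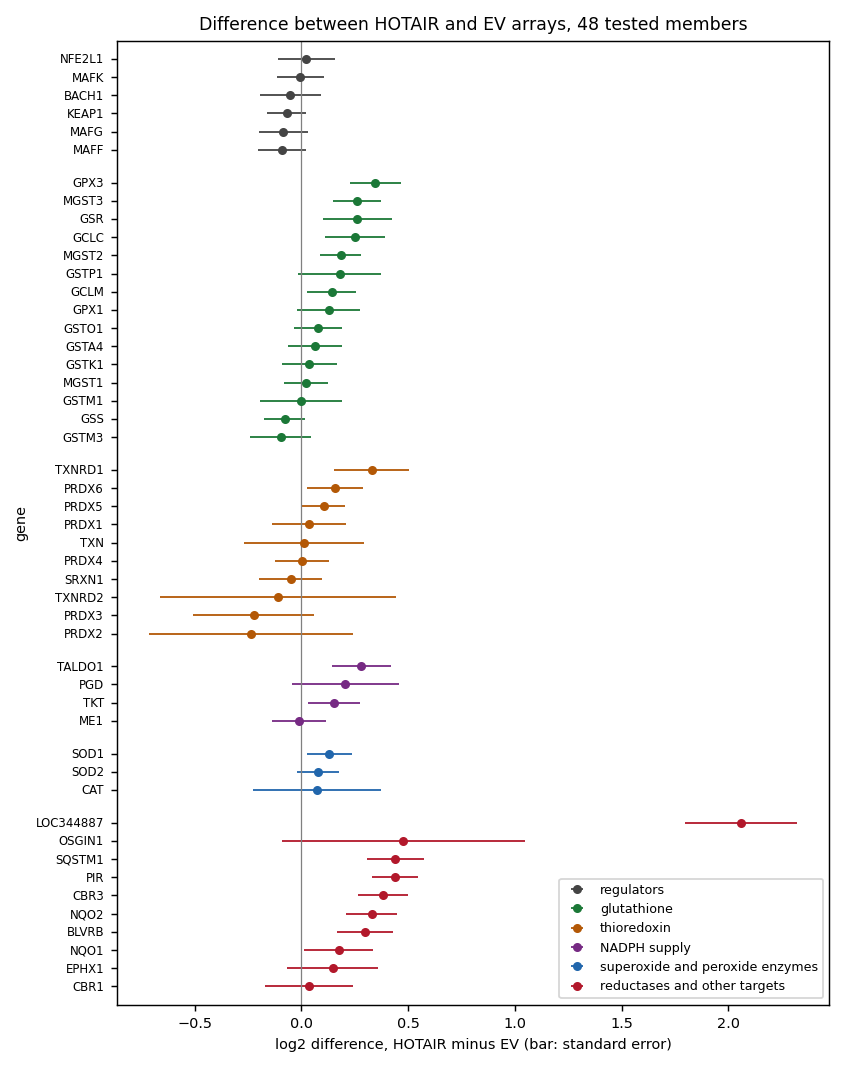
Log2 difference between the HOTAIR and EV arrays (x axis) for the 48 tested members (y axis), grouped by branch, with points for the difference of the group means and bars for its standard error in the limma fit. The 6 regulators lie between -0.09 and 0.02, all 10 reductases and other targets lie above 0, and LOC344887 stands at 2.06, far to the right of the rest.

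No tested regulator differed by more than 0.09 in either direction. Over the 6 that were tested the median was -0.06 and the range -0.09 to 0.02, and 5 of 6 were negative. KEAP1, the adaptor that holds NRF2 for degradation (probe on chromosome 19, 10597262 to 10597321, minus strand, hg19), read 2.00, 2.08, 1.99 and 2.02 on the EV arrays and 1.93, 1.96 and 1.96 on the HOTAIR arrays. Its groups did not overlap, and the difference was -0.07 (SE 0.09). BACH1, the repressor at the element, differed by -0.05 (SE 0.14), and NFE2L1, which encodes a related factor, by 0.02 (SE 0.13). Of the small MAF partners, MAFF differed by -0.09 (SE 0.11) and MAFK by -0.005 (SE 0.11). For MAFG the brighter probe gave -0.08 and the other 0.09, so its sign depended on the probe. None of these genes passed the test.

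The factor itself was not measured well. The only NFE2L2 probe (chromosome 2, 178095693 to 178095752, minus strand, hg19) read -6.10, -5.49, -5.84 and -5.87 on the EV arrays and -7.06, -6.57 and -5.42 on the HOTAIR arrays. It was well above background on HOTAIR 3 and on no other array. HOTAIR 1 and HOTAIR 2 read below every EV array and HOTAIR 3 above all of them, so the groups overlapped. With 1 of 7 arrays well above background, the probe gives no reliable level of NFE2L2 RNA in either group. NRF2 is controlled mainly through the stability of its protein, which arrays do not measure.

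In the glutathione branch, 12 of the 15 tested genes had a positive difference and the median was 0.13. None was called. GCLC and GCLM encode the catalytic and the modifier subunit of glutamate-cysteine ligase, which makes the first product of glutathione synthesis. GCLC read 0.23, 0.32, 0.07 and -0.14 on the EV arrays and 0.22, 0.44 and 0.45 on the HOTAIR arrays. GCLM read 1.60, 1.68, 1.76 and 1.90 on the EV arrays and 1.82, 1.85 and 1.97 on the HOTAIR arrays. The groups overlapped for both subunits, with differences of 0.25 (SE 0.14) and 0.14 (SE 0.11). GSS, which completes glutathione, was a little lower on every HOTAIR array, at 3.91, 3.88 and 3.90 against 3.97, 4.09, 3.93 and 3.91 on the EV arrays. Its difference of -0.08 was within its standard error of 0.10.

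GSR, which returns oxidised glutathione to its reduced form, read -0.54, 0.09, -0.30 and -0.08 on the EV arrays and 0.04, 0.07 and 0.05 on the HOTAIR arrays. Its HOTAIR arrays lay close together, and EV 2 lay above all of them. The difference was 0.26 (SE 0.16), and 0.15 to 0.36 with 1 array left out. A further tested probe gave 0.15. Among the tested genes of the branch, GPX3, the secreted glutathione peroxidase of the kidney, had the highest difference. It read -1.44, -1.15, -1.33 and -1.45 on the EV arrays and -0.86, -1.03 and -1.09 on the HOTAIR arrays. Its groups did not overlap on this probe, and its difference was 0.35 (SE 0.12). Its further tested probe gave 0.30 (SE 0.25), but there the groups overlapped, with HOTAIR 3 below EV 1, EV 3 and EV 4.

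None of the microsomal glutathione transferases passed the test. MGST3 read 5.43, 5.53, 5.39 and 5.69 on the EV arrays and 5.81, 5.77 and 5.74 on the HOTAIR arrays, a difference of 0.26 (SE 0.11). MGST2 read 0.44, 0.53, 0.43 and 0.38 on the EV arrays and 0.63, 0.62 and 0.65 on the HOTAIR arrays, a difference of 0.18 (SE 0.10). In both, the groups were separated by a narrow margin. MGST1 differed by 0.02 (SE 0.10), with overlapping groups.

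Of the cytosolic transferases, which join glutathione to electrophiles, GSTP1 differed by 0.18 (SE 0.19) and GSTO1 by 0.08 (SE 0.11). GSTP1 was uneven within both groups. It read 6.67 on EV 2 against 7.04 to 7.30 on the other EV arrays. On HOTAIR 3 it read 6.90, against 7.34 and 7.42 on HOTAIR 1 and HOTAIR 2. GSTM3 had the lowest difference among the tested genes of the branch, -0.10 (SE 0.14). GSTA4 differed by 0.06 and GSTK1 by 0.04, and the further probes of both gave the same sign. GSTM1 differed by 0.00 (SE 0.19), but the accessions listed for its probe and for the GSTM4 probe belong to both GSTM1 and GSTM4, so these near-identical genes are uncertain. The GSTM4 probe was well above background on HOTAIR 2 only, and read -6.70, -6.12, -6.85 and -7.01 on the EV arrays and -5.83, -5.21 and -5.80 on the HOTAIR arrays. Its HOTAIR arrays thus all lay above its EV arrays, but the probe had no test. On none of the arrays were GSTM2 and GPX2 well above background. GPX1, the cytosolic glutathione peroxidase, differed by 0.13 (SE 0.15) on a probe that the array annotation places on chromosome X and by 0.10 on a probe on chromosome 3, where RefSeq lists the gene.

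The thioredoxin and peroxiredoxin branch had a median difference of 0.01, with 6 of 10 genes positive, none called and none with separated groups. That median was -0.025 to 0.10 with 1 array left out, so its sign was not fixed. TXNRD1, the cytosolic thioredoxin reductase, had the highest difference, 0.33 (SE 0.18). It read -0.65, 0.02, -0.52 and -0.44 on the EV arrays and 0.08, -0.08 and -0.20 on the HOTAIR arrays, so that EV 2 alone among the EV arrays reached the HOTAIR values. SRXN1, which repairs overoxidised peroxiredoxins, differed by -0.05 (SE 0.15) and PRDX1, a peroxiredoxin of the cytosol, by 0.03 (SE 0.17), with 0.19 on its further tested probe. PRDX4, PRDX5 and PRDX6 differed by 0.00, 0.10 and 0.16. TXN, thioredoxin itself, differed by 0.01 (SE 0.28), on a single probe that the array annotation places on chromosome 17 and not on chromosome 9, where RefSeq lists the gene.

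The negative end of this branch rested on uneven arrays. PRDX2 read -0.71, -2.42, -0.51 and -0.61 on the EV arrays and -1.01, -1.10 and -1.79 on the HOTAIR arrays. TXNRD2, the mitochondrial thioredoxin reductase, read -2.79, -5.01, -3.44 and -3.43 on the EV arrays and -3.21, -3.47 and -4.65 on the HOTAIR arrays. In both genes EV 2 was the lowest EV array and HOTAIR 3 the lowest HOTAIR array, and the standard errors, 0.48 and 0.55, exceeded the differences of -0.24 and -0.11. Without EV 2 the difference of PRDX2 was -0.69, and without HOTAIR 3 it was 0.01. PRDX3, a mitochondrial peroxiredoxin, differed by -0.22 (SE 0.28). It read 4.28, 3.16, 3.96 and 3.21 on the EV arrays and 3.48, 3.46 and 3.35 on the HOTAIR arrays. EV 1 and EV 3 thus lay above every HOTAIR array, and EV 2 and EV 4 below every one.

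The genes of NADPH supply had a median difference of 0.18, with 3 of 4 positive and none called. TALDO1, transaldolase of the non-oxidative pentose phosphate pathway, read 4.97, 4.96, 5.16 and 5.40 on the EV arrays and 5.45, 5.46 and 5.30 on the HOTAIR arrays. Its difference of 0.28 (SE 0.14) was the highest of the branch, but EV 4 lay above HOTAIR 3, and its single probe is placed on chromosome 1 and not on chromosome 11, where RefSeq lists the gene. PGD, which yields NADPH in the oxidative part of the pathway, read 1.81, 1.14, 1.88 and 2.18 on the EV arrays and 2.16, 2.05 and 1.67 on the HOTAIR arrays. Its difference of 0.21 (SE 0.25) came down to 0.00 without EV 2. TKT, transketolase, differed by 0.15 (SE 0.12) and ME1, the NADP-dependent malic enzyme, by -0.01 (SE 0.13). The median of the branch was 0.04 without EV 2.

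Of the enzymes that remove superoxide and peroxide, SOD1 differed by 0.13 (SE 0.11), SOD2 by 0.08 (SE 0.10) and CAT by 0.07 (SE 0.30). Catalase read -0.32, 0.92, -0.18 and 0.06 on the EV arrays and 0.10, 0.01 and 0.48 on the HOTAIR arrays. EV 2 and HOTAIR 3 were again the extremes, here on the high side.

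The reductases and other targets held the members that differed most. All 10 were tested, all 10 had a positive difference (without EV 2, OSGIN1 was at -0.05 and CBR1 at -0.14), the median was 0.36, and in 5 of the 10 the HOTAIR arrays were all above the EV arrays, as they were for 4.2% of all tested probes, a count that describes the list. LOC344887, a transcribed pseudogene of the NmrA-like family that is known as an NRF2 target, was the only member called. It read -5.12, -4.57, -4.03 and -4.23 on the EV arrays and -2.69, -2.24 and -2.36 on the HOTAIR arrays. The lowest HOTAIR array lay 1.34 above the highest EV array, and the probe was well above background on all 7. The difference was 2.06 (SE 0.26), a 4.17-fold higher signal. The probe has 1 spot on each array and was dim on the EV arrays, where the lowest signal well above background was -6.42 to -6.06. Of 18 other ways of processing or of leaving out arrays, 6 kept the call and all 18 kept the sign. The differences ran from 0.76, with another background correction (normexp), to 2.21.

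LOC344887 has a further probe, and only 1 of the pair gave this signal. Both lie on the plus strand of chromosome 3 on hg19, and their sequences are shown because the finding rests on 1 of them. Why they differ was not tested.
LOC344887, probe with the difference (chr3:185698542-185698601): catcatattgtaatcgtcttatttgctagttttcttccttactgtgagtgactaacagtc
LOC344887, probe not above background (chr3:185693085-185693144): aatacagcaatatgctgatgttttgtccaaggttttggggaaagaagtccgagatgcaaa
The latter, which lies upstream, did not rise well above background anywhere and had a difference of 0.30 with no test. The probes stem from different database records, and the RefSeq gene table used here gave no entry under this name, so the structure of the transcript was not checked.

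PIR, which encodes the iron-binding nuclear protein pirin, read 2.21, 2.13, 2.20 and 2.23 on the EV arrays and 2.64, 2.77 and 2.49 on the HOTAIR arrays. The EV arrays agreed within 0.10, and each HOTAIR array lay above them. The difference was 0.44 (SE 0.11), a 1.35-fold higher signal. SQSTM1 encodes p62, an autophagy receptor that binds KEAP1. It read 4.32, 4.33, 4.20 and 4.05 on the EV arrays and 4.84, 4.69 and 4.47 on the HOTAIR arrays, a difference of 0.44 (SE 0.13). HOTAIR 3 came closest to the EV arrays in both genes.

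CBR3, a carbonyl reductase, read -0.34, -0.24, -0.24 and -0.17 on the EV arrays and 0.01, 0.07 and 0.32 on the HOTAIR arrays, a difference of 0.38 (SE 0.12). The related CBR1 differed by 0.04 (SE 0.21), the lowest value of the branch. NQO2, a quinone reductase, read -0.68, -0.88, -0.61 and -0.56 on the EV arrays and -0.33, -0.27 and -0.45 on the HOTAIR arrays, a difference of 0.33 (SE 0.12). NQO1, the quinone reductase most often used as a readout of NRF2, read 0.40, -0.02, 0.20 and 0.56 on the EV arrays and 0.60, 0.34 and 0.44 on the HOTAIR arrays. Its groups overlapped in part, with EV 2 and EV 3 below every HOTAIR array and EV 4 above 2 of them. The difference of 0.17 (SE 0.16) came down to 0.07 without EV 2 and rose to 0.27 without EV 4. BLVRB, which reduces biliverdin and flavins, differed by 0.30 (SE 0.13) and EPHX1, microsomal epoxide hydrolase, by 0.15 (SE 0.21).

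OSGIN1, an oxidative stress-induced growth inhibitor, had the next largest difference after LOC344887 and the largest error of the branch. It read -1.58, -3.80, -1.87 and -1.67 on the EV arrays and -1.38, -1.42 and -2.47 on the HOTAIR arrays. EV 2 lay far below the other EV arrays, and HOTAIR 3 lay below all EV arrays but EV 2. The difference of 0.48 (SE 0.57) became -0.05 without EV 2.

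**Figure D2:**
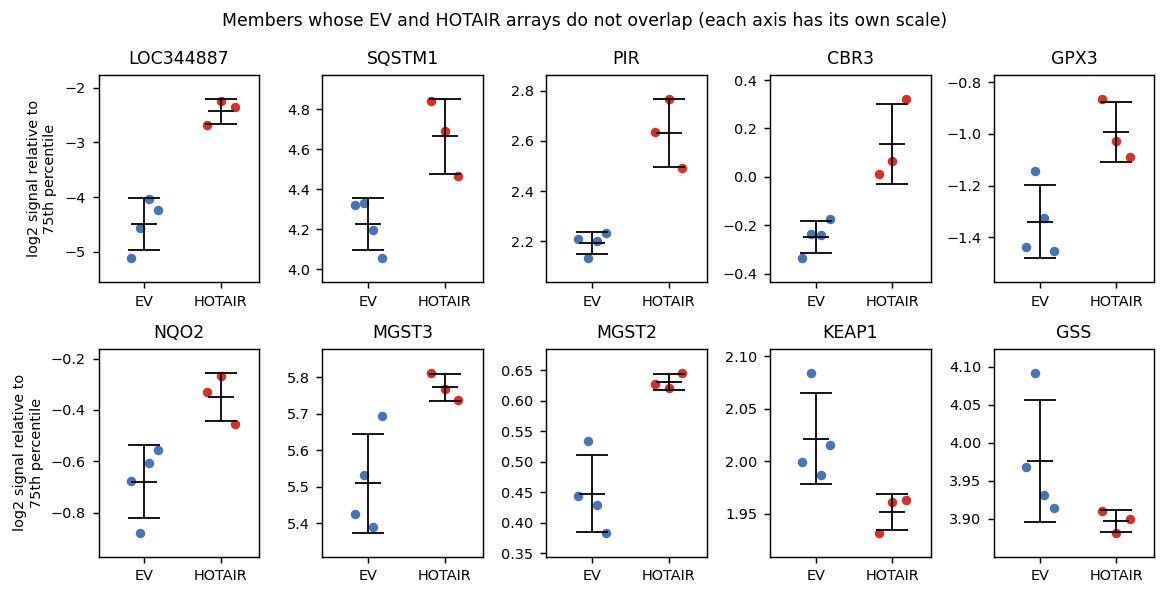
Log2 signal after subtraction of the 75th percentile (y axis, a separate scale in each panel) on the 4 EV and 3 HOTAIR arrays for the 10 tested members whose groups did not overlap, with points for arrays, long bars for group means and whiskers for 1 SD. The gap is widest for LOC344887, with EV arrays from -5.12 to -4.03 and HOTAIR arrays from -2.69 to -2.24, and KEAP1 and GSS differ by under 0.1.

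The branches were also followed from array to array, with no test between them. As the median deviation of a branch from the EV mean of each gene, the reductases and other targets stood at 0.01, -0.07, 0.02 and 0.18 on the EV arrays and at 0.36, 0.42 and 0.19 on the HOTAIR arrays. The regulators stood at -0.07, 0.09, -0.02 and 0.04 and then at -0.08, -0.04 and -0.04. The glutathione genes stood at -0.02, 0.06, -0.04 and 0.12 on the EV arrays and at 0.14, 0.14 and 0.11 on the HOTAIR arrays. EV 4 thus reached the HOTAIR values in the glutathione branch and, at 0.18 against 0.19, came close to HOTAIR 3 among the reductases and other targets. Over all members the median was 0.10 on EV 4 and 0.14, 0.13 and 0.09 on the HOTAIR arrays, so the small shift of the whole list did not separate the groups.

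**Figure D3:**
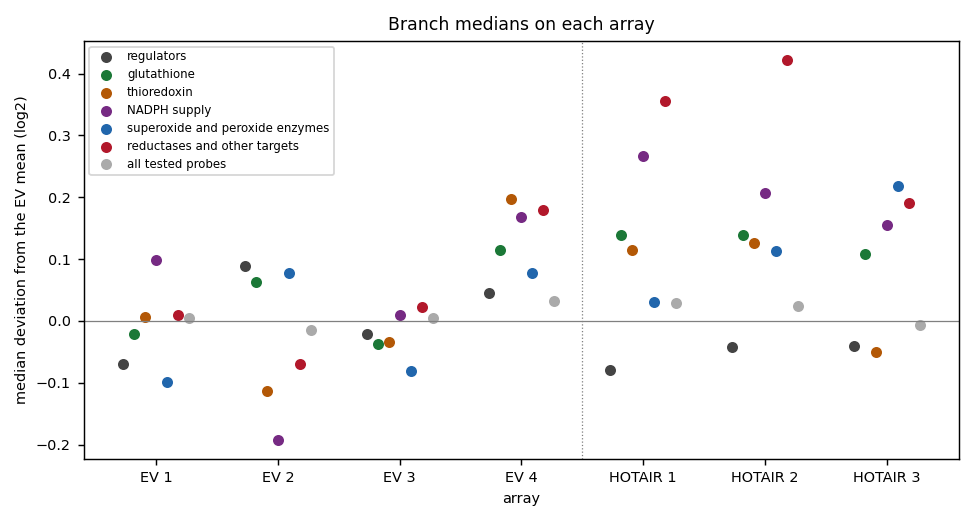
Median deviation of each branch from the EV mean (y axis, log2) on each of the 7 arrays (x axis), with all tested probes in grey and the dotted line between the EV and HOTAIR arrays. The reductases and other targets reach 0.36 and 0.42 on HOTAIR 1 and HOTAIR 2 but 0.19 on HOTAIR 3, next to 0.18 on EV 4.

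Much of the spread among the members came from EV 2 and HOTAIR 3. The SD of the members' deviations from their group mean was 0.43 on EV 2 and 0.18 to 0.26 on the other EV arrays, and 0.22 on HOTAIR 3 against 0.15 and 0.12 on HOTAIR 1 and HOTAIR 2. EV 2 was the array farthest from the EV mean for 25 of the 48 members, and HOTAIR 3 was the farthest from the HOTAIR mean for 27. The deviations on these 2 arrays ran the same way, with Pearson's r of 0.77 over the 48 members and 0.62 over all tested probes, given as a description, since the genes are read on the same arrays. OSGIN1, PRDX2 and TXNRD2 were low on both and CAT was high on both. What sets these arrays apart was not tested.

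**Figure D4:**
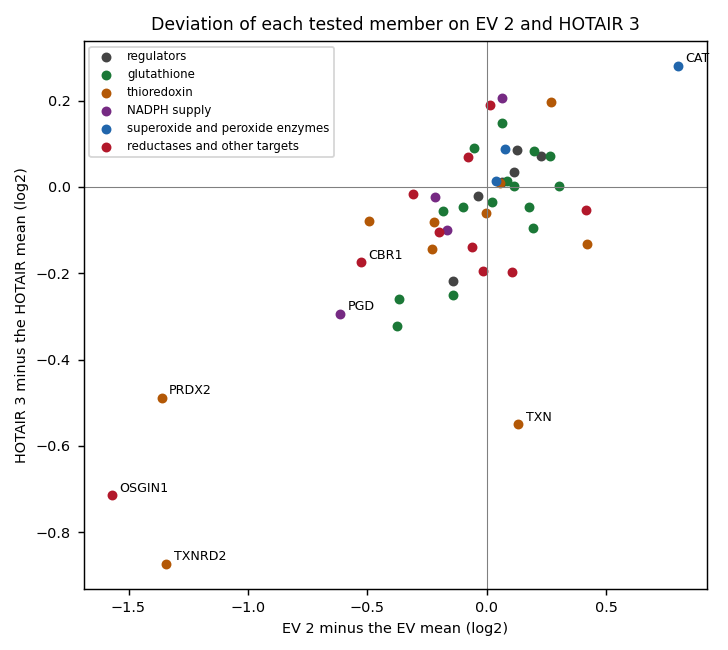
Deviation of each of the 48 tested members from the EV mean on EV 2 (x axis, log2) and from the HOTAIR mean on HOTAIR 3 (y axis, log2), with a point per gene coloured by branch. OSGIN1, TXNRD2 and PRDX2 lie far to the lower left and CAT to the upper right, and Pearson's r is 0.77.

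Differences of members with and without the motif were set side by side, with no test. The 14 tested members with the motif had a median difference of 0.07, from -0.09 to 0.44, and the 25 with a window but without it had a median of 0.08, from -0.24 to 0.48. Of the members above in every HOTAIR array, PIR had the motif, GPX3, MGST3, NQO2 and SQSTM1 had a window without it, and LOC344887, CBR3 and MGST2 had no window.

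A further 68 genes of the same pathways, listed by function with the members left out, had a median difference of 0.03 over the 54 that were tested. The fit called 3 of them higher and none lower, where it called 0.132% of all tested probes higher and 0.0343% lower. In every HOTAIR array 7 of the 54 lay above and 2 below, next to 4.2% and 3.5% of all tested probes, and the context genes too were listed with this comparison known, so nothing is read from these counts. The called genes were AKR1B10 and AKR1B15, aldo-keto reductases that reduce reactive aldehydes, with differences of 2.61 (SE 0.14) and 2.67 (SE 0.11), and SLC7A11, with 0.99 (SE 0.10). AKR1B10 and AKR1B15 are near-identical copies, so their probes may share RNA. SLC7A11 carries the cystine that glutathione synthesis needs. It read -0.01, -0.01, 0.14 and 0.07 on the EV arrays and 1.03, 1.13 and 0.96 on the HOTAIR arrays, while the groups overlapped for GCLC and GCLM, whose product takes up the cysteine made from it. The calls of AKR1B10 and AKR1B15 held in 17 and that of SLC7A11 in 8 of 18 other ways of processing or of leaving out arrays, and SLC7A11 lost its call with no filter, with the deposited table, with the replicate block, without EV 2 and HOTAIR 3 together and without any 1 array other than EV 2.

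The other context genes with separated groups were named after their values were seen. HMOX1, heme oxygenase, read 3.45, 3.57, 3.61 and 3.91 on the EV arrays and 4.54, 4.50 and 4.34 on the HOTAIR arrays, a difference of 0.82 (SE 0.14) that did not pass the test. The probe listed under TRIM16L (chromosome 17, 15531740 to 15531799, minus strand, hg19) differed by 0.53. It may read the near-identical TRIM16 instead or as well, which was not checked. The glutaredoxins GLRX and GLRX5 differed by 0.32 and 0.19. SESN1 and MTHFD1 lay below in every HOTAIR array, by -0.42 and -0.15. By branch, the context genes had medians of 0.26 over 15 further targets, 0.06 over 13 glutathione genes, -0.02 over 8 thioredoxin genes, -0.04 over 6 regulators, -0.06 over 10 genes of NADPH supply and 0.24 over the 2 tested superoxide and peroxide enzymes. The NADPH context genes thus had a median under 0 where the 4 NADPH members had one above it. IDH1 and IDH2, isocitrate dehydrogenases that yield NADPH, stood at 0.15 (SE 0.11) and 0.33 (SE 0.28). The malic enzymes ME2 and ME3 both stood at -0.23. IDH2 read 0.56 on EV 2 and 1.48 to 1.64 on the other EV arrays, so most of its difference came from EV 2. The IDH1 probe is placed on chromosome 4 and not on chromosome 2, where RefSeq lists the gene, and the IDH2 probe has no position.

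The tested genes most like LOC344887 over the 7 arrays, by Pearson's r as a description, were a lincRNA on chromosome 18 (0.99), KCNK1 (0.99), TRERF1 (0.99), THBS4 (0.99) and a lincRNA on chromosome 6 (0.99). None is a member or a context gene. KCNK1, a potassium channel, was called higher in the same fit, with a difference of 1.43 (SE 0.14), and the other 4 were not called.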

How the data were processed

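The authors scanned the arrays and deposited Feature Extraction 10.7.3.1 output with a processed intensity per spot, with the background subtracted and no scaling, and a table that repeats these intensities and differed from it by at most 0.498%. Probe positions are those of the array annotation (hg19). Here the log2 of the processed intensity minus each array's 75th percentile over 58717 non-control spots was used. Outlier spots (408 to 600 an array) were left out, spots of a probe were averaged, and 14 of 42405 probes lacked a value. A probe was tested if all arrays of either group had it well above background (20419 probes, 16664 gene names), with lmFit and eBayes of limma 3.58.1 in R 4.3.3 and Benjamini-Hochberg adjustment, without a block, at an adjusted p of 0.05. The script was checked on simulated arrays. A gene is represented by its tested probe with the highest mean. The members and lists were chosen with earlier results of these data known. Named with values are genes past the threshold and the highest and lowest tested genes of each branch. So are 22 genes picked by role, HOTAIR and the 5 genes most like LOC344887. Other members are given to account for the list. Alternatives were normexp (offset 50), quantile normalization, other scalings, other filters, the deposited table, limma's trend and robust moderation, the replicate block, arrays left out, the mean of a gene's probes, the rank product and the Mann-Whitney U test. One marker gene is not reported here.

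The groups share the numbers 1 to 3. Deviations of same-numbered arrays correlated by 0.39, -0.37 and -0.41, so the numbers were not taken to pair the samples. For 8 members with 2 tested probes, the sign differed for MAFG only. Of 63 member probes, 55 lie on the chromosome RefSeq gives for the gene, 3 (GPX1, TXN, TALDO1) do not, and 5 could not be compared. Of the probes of 65 context genes, 4 (GLRX3, IDH1, FTL, FTH1) lie on another chromosome than RefSeq gives and 4 have no position.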

Additional observations from a re-analysis of the deposited data

Results flagged for a closer look

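In 9 genes a single EV array lay apart from the other 3. Looked at were the 4 EV arrays for the 48 tested members, the 54 tested context genes and the 6 branch medians, 108 groups in all. The measure is the gap of the outlying array to its nearest neighbour as a share of the range of the 4 EV arrays, and all 9 exceeded the 95% critical value of Dixon's test for 4 samples. For EV 2 it was 0.836 for GSTK1, 0.893 for PRDX2 and 0.872 for OSGIN1 among the members, and 0.866 for TXNDC5, 0.832 for SESN2, 0.847 for IDH2 and 0.887 for ABCC3 among the context genes. It was 0.893 for ME3 on EV 4 and 0.925 for MTHFD2 on EV 3. EV 2 was the high array for GSTK1 and the low array for PRDX2 and OSGIN1. Chance flags about 1 in 20 groups, which is 5.4 of 108, and the genes share their arrays. Whether the preparation of EV 2, the outlying array in 7 of the 9 genes, had a part in them was not tested.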

How the results depend on the processing

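Over the whole array, 27 probes were called higher and 7 lower. The counts were 10 and 2 with normexp, 13 and 1 with no filter, 16 higher with the filter on all 7 arrays, 2 lower with the deposited table, 17 and 3 with trend and robust moderation, 13 and 1 without EV 2 and HOTAIR 3 together (added after the data were seen), 52 and 30 by the rank product, and 0 and 0 by the Mann-Whitney U test, whose exact p cannot fall below 0.0571. At an unadjusted p under 0.05 limma had 1194 probes. With 1 array left out, 9 to 29 were called higher and 0 to 2 lower. LOC344887, the 1 member called, was not called (0 members higher) with normexp, with no filter, with trend and robust moderation, without EV 2 and HOTAIR 3, by the Mann-Whitney U test or with any 1 array left out (0 to 0 members). The rank product kept the call. Its adjusted p by limma was 0.0441, and 0.0109 to 0.294 over the alternatives. SLC7A11 was called under 8 of 18 alternatives and AKR1B10 and AKR1B15 under 17.

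With the replicate number as a block, limma called 0 probes higher and 0 lower, 0 members and 0 context genes, and the median over all members was 0.15. EV 4 has no partner and drops out of that fit. The numbers share only a label.

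The 8 members above became 8 to 13 with 1 array left out (13 without HOTAIR 3, where 11% of all tested probes lay above) and 16 without EV 2 and HOTAIR 3 (14.3% of all). Over all tested probes this share was 5.3% to 11% with 1 array left out, against 4.2% with all, so fewer arrays raise it for any list. The 2 below became 1 with normexp, quantile normalization, and both scalings over detected probes, and 0 with the deposited table. With 1 array left out, the median difference was 0.064 to 0.15 over all members and 0.044 to 0.26 for NADPH supply. It was -0.025 to 0.10 for the thioredoxin branch, so that its sign turned, and -0.081 to -0.015 for the regulators. For the glutathione genes it was 0.082 to 0.16, for the superoxide and peroxide enzymes 0.052 to 0.16, and for the reductases and other targets 0.29 to 0.39. Of 36 named genes, 24 kept their sign under every alternative. BACH1, CAT, CBR1, MAFG, ME1, MGST1, NFE2L1, OSGIN1, PRDX1, PRDX2, SRXN1 and TXN, none of them called, did not. The cause was not tested. With 3 against 4 arrays, differences of several standard errors, such as 0.82 (SE 0.14) for HMOX1 and 0.44 (SE 0.11) for PIR, were not called, and dim probes have only a bound.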
